A study of Mus musculus with 4 samples.

Results

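Complex I, or NADH:ubiquinone oxidoreductase, is the entry point of electrons from NADH into the mitochondrial respiratory chain. A peripheral arm carries electrons from NADH through a flavin and a chain of iron-sulfur clusters to ubiquinone, and a membrane arm pumps protons. The core subunits do the catalysis and are shared with bacteria, the accessory subunits surround them, and assembly factors help to build the complex without staying in it. Heart muscle depends on oxidative phosphorylation and holds large amounts of the complex. The genes described here are the 45 rows of the deposited gene table whose name starts with Nduf, out of 48432 gene rows. Of these, 38 carry subunit names and 7 are Ndufaf assembly factors. No name containing -ps was taken. The rule used names and no measured value, although it was set with earlier results of these data known.

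Polyadenylated RNA was sequenced from mouse cardiomyocytes isolated by Langendorff perfusion after 3 days on a doxycycline diet. The control group held 2 libraries of the genotype MHC, and the overexpression group held 2 libraries of the genotype RbFox2, named Rbfox2 OE, all from C57BL x FVB mice. The labels do not spell out the MHC allele, whether Rbfox2 OE animals carry it too, the promoter that drives the transgene, or the age and sex of the animals. The study title names the non-muscle isoform of RBFOX2, an RNA-binding regulator of splicing, and the conduction defects of myotonic dystrophy. The authors' table gives 1 pooled value per gene and group in FPKM, fragments scaled to transcript length and library size, with a lower and an upper bound whose level is not stated. These bounds are given below in parentheses after a value, and the Rbfox2 OE group is also called the overexpressing cells. No value per library was given, so there was no replicate spread and no test. A gene is called different below only where the bounds of the groups did not overlap, and the sequencing depth behind each value is unknown.

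As a check of the labels, Rbfox2 stood at 14.7 FPKM in control cells and at 293 FPKM in overexpressing cells. Of 8 cardiomyocyte markers, Myh6 and Mb were listed at 0 in both groups with the status HIDATA, which Cuffdiff gives to loci with too many fragments. The other 6 (Tnnt2, Tnni3, Actc1, Myl2, Myl3 and Pln) stood between 2613 and 24688 FPKM in control cells. All 6 had lower values in overexpressing cells, 3 of them with separate bounds, and their sum was 57597 FPKM in control cells and 36306 FPKM in overexpressing cells. Markers of other cells had higher values there. The 6 fibroblast markers summed to 202 FPKM in control cells and 466 FPKM in overexpressing cells, and 4 had separate bounds. The 5 endothelial markers summed to 151 and 281 FPKM, and 2 had separate bounds, while Kdr was level at 23.0 and 23.5 FPKM. The 6 macrophage and leukocyte markers summed to 58.5 and 235 FPKM (5 with separate bounds), the 4 red blood cell markers to 56.1 and 294 FPKM (4) and the 5 smooth muscle and pericyte markers to 138 and 317 FPKM (3). None of these markers was at 0 apart from Myh6 and Mb. The part of these marker differences in the results below was not tested, and in bulk RNA fewer cells of a type and less RNA per cell cannot be told apart.

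Most complex I transcripts had a slightly lower value in overexpressing cells, but the bounds of 37 of the 38 genes with subunit names overlapped. Of the 38 genes with subunit names, 31 (81.6%) had a lower value in overexpressing cells, against 53.8% of the 11697 genes compared and 59.9% of the 1320 genes averaging 50 FPKM or more. Their median log2 ratio of Rbfox2 OE over control, with 1 FPKM added to each value, was -0.28, against -0.06 for all genes compared and -0.13 for those at 50 FPKM or more. The quartiles of the 38 log2 ratios were -0.46 and -0.06, a narrower range than the quartiles of all genes, -0.52 and 0.38. Separate bounds were found for 1 of the 38, Ndufs1, which was lower (9.33% of all genes compared were lower with separate bounds and 6.67% were higher). The same gene was the only one at least 2-fold lower, where 10% of all genes were, and 0 were 2-fold higher, where 6.97% were. So the share of subunit genes called by either criterion lay under the share of all genes.

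The level of these ratios depends on how the groups are scaled to each other. A common factor moves nearly all log2 ratios alike, so it could hardly change the gap to the median of all genes. After rescaling without mitochondrial genes and the 10 most abundant genes, which moved Rbfox2 OE by 0.15 on the log2 scale, 25 of the 38 (65.8%) were lower, against 45.4% of the 11806 genes then compared, and the median became -0.14, while that of all genes became 0.06. Centred on the median gene, 28 of 38 (73.7%) were lower, against 50% of all genes, and the median was -0.22. The subunit median minus that of all genes was thus -0.22 as deposited and when centred, and -0.20 when rescaled. The filter, which sets the genes compared, did move this gap. It was -0.16 with a minimum mean of 5 FPKM and -0.30 without a filter on low values. The 36 genes whose products are complex I subunits took 3.19% of the summed FPKM of the table, which leaves out loci listed at 0, in control cells and 3.03% in overexpressing cells. Their FPKM summed to 16380 and 13538.

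**Figure D1:**
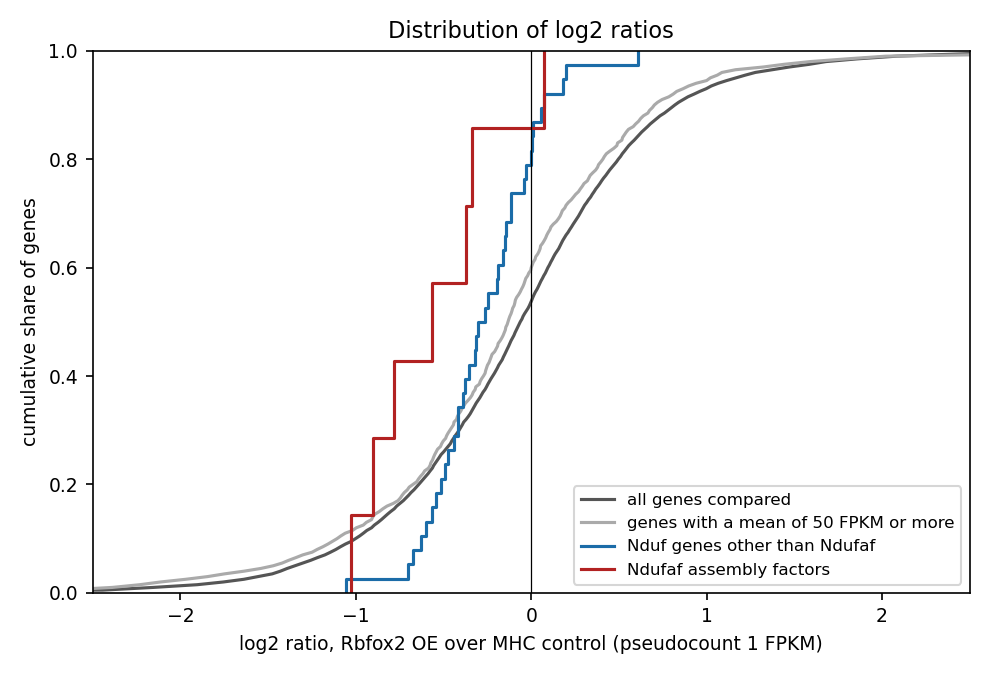
Cumulative share of genes (vertical axis) against the log2 ratio (Rbfox2 OE to MHC control) with 1 FPKM added (horizontal axis), for all 11697 genes compared, the 1320 genes with a mean of 50 FPKM or more, the 38 Nduf genes other than Ndufaf and the 7 Ndufaf genes. The curve of the 38 genes is steep, with its median at -0.28, while all genes spread widely around -0.06.

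All 45 genes are protein-coding in GENCODE M21, lie on 16 chromosomes, had the status OK in both groups and passed the minimum of 1 FPKM. The subunits were abundant transcripts. In the control, the 36 subunit genes ranged from 61.2 FPKM for Ndufb4 to 920 FPKM for Ndufb10, with a median of 413 FPKM. In Rbfox2 OE they ranged from 49.3 FPKM, again for Ndufb4, to 813 FPKM for Ndufa1, with a median of 343 FPKM. The assembly factors were far scarcer, from 11.4 to 53.7 FPKM in control cells and from 5.05 to 30.8 FPKM in overexpressing cells. FPKM is scaled by transcript length, so these levels can be set side by side between genes, but only roughly. Ndufb4 shares 18.3% of its 50-base sequences with transcripts of other genes, so its level is less certain. The order of the 45 levels was nearly the same in both groups (Spearman's rho 0.97 and Pearson's r of the log2 levels 0.99 across 45 genes of the same libraries, given as a description). The authors' bounds lay a median of 29.7% from the value in control cells and 30.5% in overexpressing cells. At those median widths, values must be about 1.86-fold apart before the bounds separate, so most of the differences described here are smaller than the bounds can resolve.

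**Figure D2:**
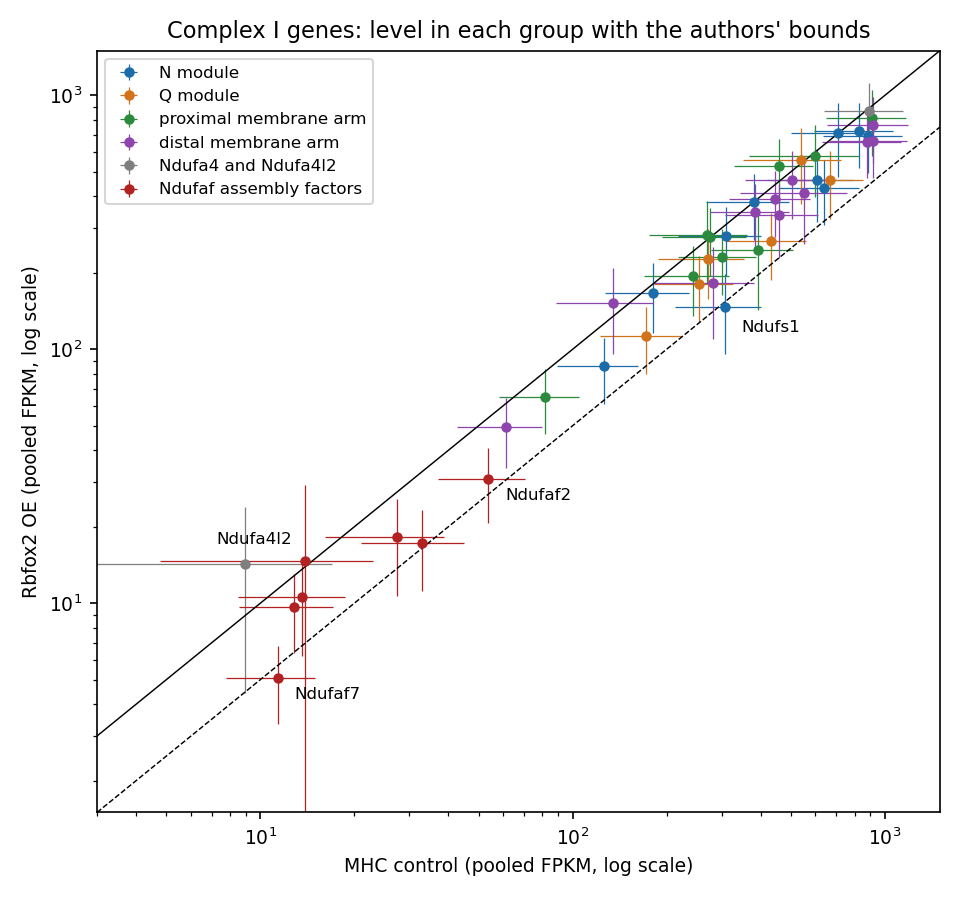
Pooled FPKM of the 45 genes in Rbfox2 OE (vertical, log scale) against MHC control (horizontal, log scale), coloured by role, with the authors' bounds as bars (the lower bounds of Ndufaf3 in Rbfox2 OE and Ndufa4l2 in the control run off the axes), equality as a solid line and a 2-fold decrease as a dashed line. Subunits cluster just below equality, and Ndufs1 and Ndufaf7 lie past the dashed line.

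The N module, at the tip of the peripheral arm, oxidises NADH. Of its 10 genes, 9 had lower values in overexpressing cells, and 1 of those, Ndufs1, had separate bounds. Ndufs1 encodes the largest subunit, which carries several of the iron-sulfur clusters (ENSMUSG00000025968, GRCm38 chromosome 1, 63143596 to 63176833, minus strand). It stood at 307 FPKM (213 to 401) in control cells and at 147 FPKM (95.5 to 199) in overexpressing cells. The control was 2.09-fold higher, a log2 ratio of -1.06, and the nearest and farthest pairs of bounds gave -0.10 and -2.06. The gap between the bounds was narrow: after the rescaling described above the log2 ratio was -0.91 and the bounds overlapped. Ndufs1 overlaps Eef1b2, Gm24557 and Ino80dos on the opposite strand and shares its locus in the table with other genes, 14 in all, so its value depends on how fragments were assigned there.

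The remaining N-module genes stood closer together. Ndufv1, which binds NADH and the flavin, had 606 FPKM in control cells and 466 FPKM in overexpressing cells, with overlapping bounds (418 to 794 and 317 to 614). Its partner Ndufv2, an iron-sulfur protein, had 310 and 280 FPKM. Ndufs4, an accessory subunit whose loss causes Leigh-like disease in mice, had 126 FPKM in control cells and 86.0 FPKM in overexpressing cells. Ndufa6, a protein of the LYR family that binds acyl carrier protein, had 641 and 434 FPKM. For Ndufs4 and Ndufa6 each value lay beyond the bounds of the other group although the bounds themselves overlapped. Ndufa12, Ndufs6 and Ndufa2 had log2 ratios of -0.35, -0.19 and -0.12. Ndufv3 (709 and 708 FPKM) and Ndufa7 (380 and 381 FPKM) were nearly level, and Ndufa7 had the highest log2 ratio of the module, at 0.0024, with bounds of 268 to 493 and 269 to 492 FPKM.

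The Q module joins the N module to the membrane and holds the site where ubiquinone is reduced. Its 6 genes had the lowest median log2 ratio of the structural groups, -0.50, with 5 of 6 lower and all 6 with overlapping bounds. Ndufs7, which carries the iron-sulfur cluster next to ubiquinone (chromosome 10, 80249121 to 80256794, plus strand), had 434 FPKM (310 to 558) in control cells and 266 FPKM (188 to 344) in overexpressing cells, a log2 ratio of -0.70. Ndufs8, another iron-sulfur protein, had 172 and 113 FPKM. Ndufa9, an accessory subunit of this region, had 254 and 180 FPKM. In Ndufs7, Ndufs8 and Ndufa9 each value lay beyond the bounds of the other group. Ndufs3 had a log2 ratio of -0.25, and Ndufa5 was the exception, with 538 FPKM (351 to 725) in control cells and 558 FPKM (373 to 744) in overexpressing cells.

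The catalytic core is spread over both modules. All 7 nuclear-encoded core subunits, Ndufv1 and Ndufs1 among them, had lower values in overexpressing cells, with a median log2 ratio of -0.52 and a range of -1.06 to -0.15. Of the 29 accessory subunits 23 had lower values, with a median of -0.26 and a range of -0.67 to 0.20. These are counts and medians; the difference between core and accessory genes was not tested. After rescaling, Ndufv2 stood at -0.00033, level between the groups.

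The proximal membrane arm carries the accessory subunits around the base of the peripheral arm. Its 9 genes had a median log2 ratio of -0.16, the nearest to 0 of the structural groups, and 6 of 9 were lower. Ndufa10, related to nucleoside kinases, had the lowest ratio, with 392 FPKM (278 to 507) in control cells and 246 FPKM (142 to 349) in overexpressing cells, a log2 ratio of -0.67. Ndufa13, also called GRIM-19, had 302 and 231 FPKM. Ndufa11 and Ndufc2 had log2 ratios of -0.32 and -0.32, Ndufa1 of -0.16 and Ndufa3 of -0.04. Ndufs5 and Ndufc1 were level or slightly higher, at 0.0081 and 0.08. The highest value among the subunits relative to control was that of Ndufa8, a twin-cysteine protein facing the intermembrane space, with 459 FPKM (329 to 588) in control cells and 526 FPKM (377 to 674) in overexpressing cells, a log2 ratio of 0.20 with overlapping bounds.

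In the distal membrane arm, around the outer proton pumps, 10 of 11 genes had lower values, all with overlapping bounds, and the median log2 ratio was -0.31. Ndufb2 had 282 FPKM (181 to 382) in control cells and 182 FPKM (110 to 254) in overexpressing cells, a log2 ratio of -0.63. It overlaps Braf and Gm16272 on the opposite strand and Gm42420 on its own. Ndufb10, the most abundant transcript of the complex in control cells, had 920 FPKM there (bounds 663 to 1177) and 662 FPKM (475 to 850) in overexpressing cells, and each value lay beyond the bounds of the other group. Ndufb5, Ndufb9 and Ndufab1, the mitochondrial acyl carrier protein, had log2 ratios of -0.44, -0.42 and -0.42. Ndufb4, Ndufb8, Ndufb7, Ndufb3 and Ndufb11 lay between -0.31 and -0.12. Ndufb6 was the 1 gene of this arm with a higher value, 135 FPKM (88.7 to 181) in control cells and 153 FPKM (95.8 to 210) in overexpressing cells.

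Across all 38 genes, 9 had each value beyond the bounds of the other group and lower in overexpressing cells, among them Ndufs1, Ndufa6, Ndufs4, Ndufs7, Ndufa10 and Ndufb10. This looser criterion was chosen after the values were seen. The 9 are 23.7% of the genes, close to the 20.1% of all genes compared and the 24.3% of genes at 50 FPKM or more that met it in this direction. None of the 38 met it in the other direction, where 14.9% of all genes did. At 1.5-fold, 5 were lower (13.2%, against 22.1% of all genes) and 1 was higher, Ndufa4l2 (16.6% of all genes were).

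**Figure D3:**
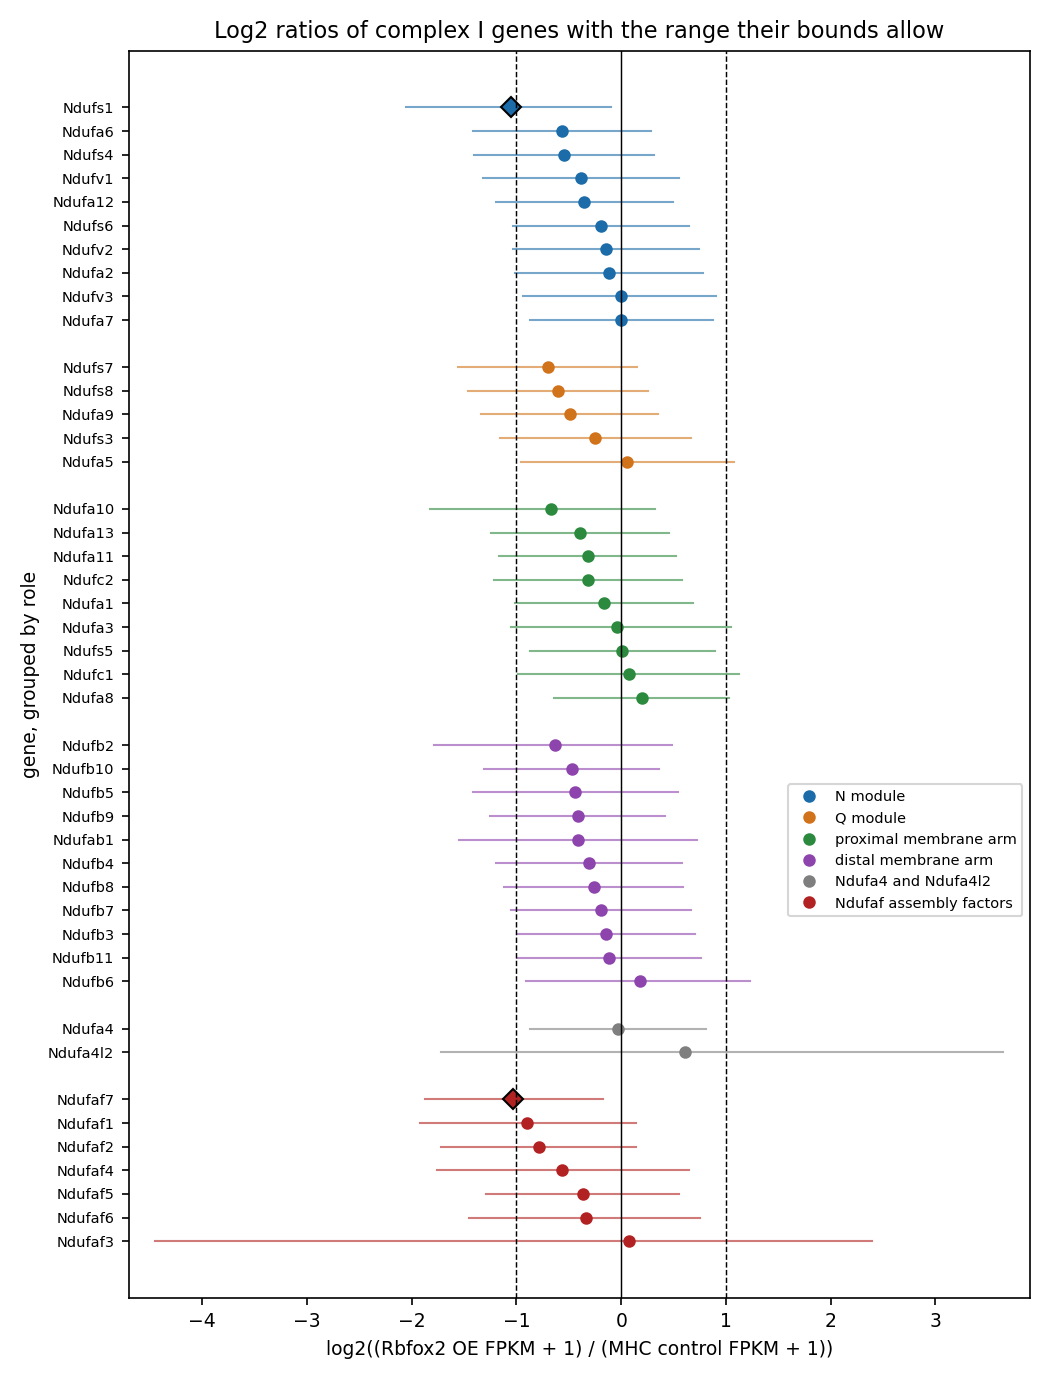
Log2 ratio (Rbfox2 OE to MHC control) with 1 FPKM added (horizontal axis) for 44 of the 45 genes, grouped by role, with lines from the lowest to the highest ratio that the authors' bounds allow and dashed lines at 2-fold. The diamonds mark Ndufs1 and Ndufaf7, whose lines alone stay below 0.

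Of the genes with Nduf names, 2 do not belong to complex I as now understood. Ndufa4 encodes a subunit assigned to cytochrome c oxidase, complex IV, and had 889 FPKM (638 to 1141) in control cells and 871 FPKM (624 to 1117) in overexpressing cells. Ndufa4l2, a paralogue known to be induced by hypoxia, had 8.96 FPKM (1.001 to 16.9) in control cells and 14.2 FPKM (4.43 to 24.0) in overexpressing cells, a log2 ratio of 0.61. Its bounds overlapped widely, and it overlaps Shmt2 on the opposite strand. It was the lowest of the 38 genes in both groups.

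Of the 7 Ndufaf assembly factors 6 had lower values, with a median log2 ratio of -0.56, and 1 had separate bounds, against 9.33% of all genes compared. That gene was Ndufaf7, which encodes a methyltransferase that acts early in assembly (ENSMUSG00000024082, chromosome 17, 78937136 to 78948052, plus strand). It stood at 11.4 FPKM (7.79 to 14.9) in control cells and at 5.05 FPKM (3.34 to 6.77) in overexpressing cells, a control level 2.25-fold higher and a log2 ratio of -1.03. The nearest and farthest bounds gave -0.18 and -1.88. With the added value set to 5 FPKM in place of 1, the log2 ratio was -0.70. Ndufaf7 overlaps no other annotated gene.

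Ndufaf1, which acts in the assembly of the membrane arm, had 33.1 FPKM (21.1 to 45.1) in control cells and 17.3 FPKM (11.2 to 23.4) in overexpressing cells. Ndufaf2, which acts late, when the N module is added, had 53.7 FPKM (37.0 to 70.4) and 30.8 FPKM (20.7 to 40.9). In both, each value lay beyond the other group's bounds while the bounds overlapped, and their log2 ratios were -0.90 and -0.78. Ndufaf3 and Ndufaf4 act together on the early Q module, and their log2 ratios were 0.07 and -0.56. For Ndufaf3 the bounds in overexpressing cells ran from 0.101 to 29.3 FPKM around a value of 14.7 FPKM, and the control had 13.9 FPKM (4.77 to 23.0), so its level is poorly determined. Ndufaf5, which hydroxylates an arginine of Ndufs7, had 12.8 and 9.69 FPKM, and Ndufaf6 had 13.6 and 10.6 FPKM, both with overlapping bounds. The difference between assembly factors and subunits was not tested. Under the rescaling the medians were -0.42 and -0.14, with 6 of 7 assembly factors still lower.

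Complex I assembly also needs proteins without an Nduf name. Of 11 such genes found in the table, 9 had lower values and the median log2 ratio was -0.47. Tmem186, a partner of Ndufaf1 in the membrane-arm assembly complex, was the 1 with separate bounds (9.09% of the list, against 9.33% of all genes), at 9.72 FPKM (5.52 to 13.9) in control cells and 2.58 FPKM (0.958 to 4.21) in overexpressing cells. Other members of that complex stood lower with overlapping bounds: Acad9 had 23.6 and 12.3 FPKM, Ecsit 74.1 and 53.4 FPKM, and Timmdc1 26.9 and 18.4 FPKM. Foxred1 had a log2 ratio of -1.61, but its bounds ran from 13.6 to 60.1 FPKM in control cells and from 0 to 23.6 FPKM in overexpressing cells. The gene now named Ndufaf8, which the table lists as 1810043H04Rik and the name rule therefore leaves out, had 24.9 and 23.0 FPKM. With it included, 7 of 8 Ndufaf genes had lower values and their median log2 ratio was -0.47.

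The membrane arm core is encoded in mitochondrial DNA, by 7 genes. Of these, mt-Nd1, mt-Nd2, mt-Nd4, mt-Nd4l, mt-Nd5 and mt-Nd6 were listed at 0 with the status HIDATA in both groups, so nuclear and mitochondrial genes of the complex could not be compared. The 1 estimated gene, mt-Nd3, was higher in overexpressing cells with separate bounds, as 6.67% of all genes compared were. It had 25.7 FPKM (15.5 to 36.0) in control cells and 59.2 FPKM (38.7 to 79.7) in overexpressing cells. Its control value lay under the 61.2 FPKM of the scarcest nuclear subunit, and whether it was fully counted was not tested.

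The rest of the respiratory chain also had mostly lower values. The median log2 ratio was -0.31 for the 36 complex I subunits and -0.32 for 41 nuclear-encoded genes of complexes II to V, of which 38 had lower values and 3 (7.32%, against 9.33% of all genes) were lower with separate bounds. By complex, the medians were -0.75 for complex II (4 genes), -0.47 for complex III (9 genes), -0.22 for complex IV (12 genes) and -0.29 for complex V (16 genes). The 6 cardiomyocyte markers had a median of -0.82. None of these differences was tested.

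**Figure D4:**
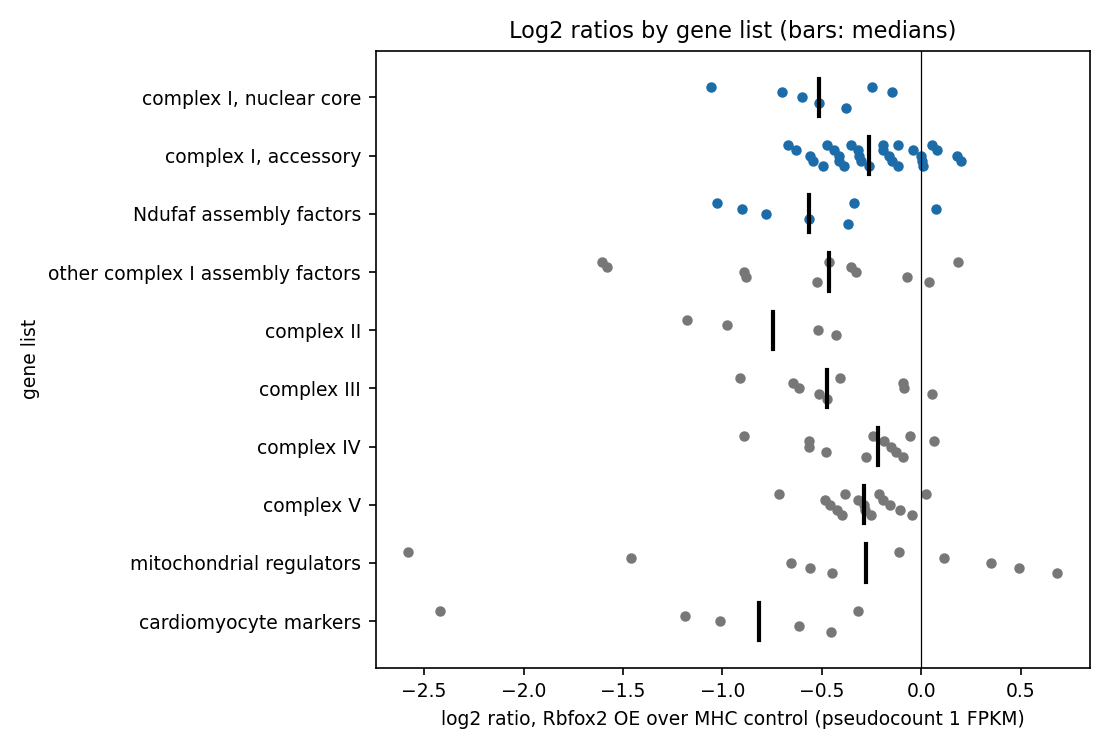
Log2 ratios (Rbfox2 OE to MHC control) with 1 FPKM added (horizontal axis) for single genes (points), by gene list (vertical axis), with medians as bars. The medians are -0.52 for the nuclear core of complex I, -0.56 for the Ndufaf genes and -0.26 for the accessory subunits, and the points of these lists overlap.

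Transcription of nuclear respiratory genes is driven by factors such as NRF1, GABP, YY1 and the ERR nuclear receptors, with the coactivator PGC-1alpha. The 10 regulators listed also include Tfam and Polrmt, which act on mitochondrial rather than nuclear genes. Of the 10, 6 (60%, against 53.8% of all genes) had lower values and 2 (20%, against 9.33%) were lower with separate bounds. Ppargc1a, which encodes PGC-1alpha, had 57.4 FPKM (32.3 to 82.5) in control cells and 20.3 FPKM (13.4 to 27.1) in overexpressing cells, a log2 ratio of -1.46. Esrrg, which encodes ERR-gamma, had 14.9 FPKM (9.46 to 20.4) and 1.66 FPKM (0.956 to 2.37), a log2 ratio of -2.58. The others overlapped. Esrra had 68.4 and 49.8 FPKM, Nrf1 5.23 and 6.94 FPKM, Gabpa 31.7 and 29.2 FPKM, and Yy1 15.9 and 26.1 FPKM. Ppargc1b had 5.46 and 5.98 FPKM, Gabpb1 5.34 and 7.91 FPKM, Tfam 24.8 and 15.4 FPKM, and Polrmt 11.8 and 7.68 FPKM. The Gabpa bounds ran from 0 to 67.6 FPKM in control cells and from 0 to 60.1 FPKM in overexpressing cells, so its level is poorly determined. Any link between these levels and the subunits was not tested.

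Promoters were searched for short motifs of these factors as a description, and no cause was tested. RefSeq windows on GRCm38.p6, from 250 bases before to 50 bases after the transcript start, were matched for 39 of the 45 genes (41 windows, as Ndufa5 and Ndufa7 have a pair each), and either strand counted. Ndufs1 was not among the 39 genes with a window. The NRF1 motif was present in 10 of the 41 windows (24.4%, 9 genes), against 4.60% of 32851 windows of all genes. The windows of all genes were not limited to genes expressed here. Both windows of Ndufa5 overlap and hold the same copy of the NRF1 motif. The YY1 motif was present in 4 windows (9.76%), against 0.633% of all windows. The ETS motif CCGGAAG, bound by GABP, was present in 5 windows (12.2%, against 8.86%) and the ERR motif AAGGTCA in 3 windows (7.32%, against 4.72%). The letters TGCATG, the motif that RBFOX proteins bind in RNA, were present in 4 windows (9.76%, against 11.0%). A match is a description of letters and not a binding site. Genes with the NRF1 motif had a median log2 ratio of -0.31 and those with the YY1 motif -0.52, and these small sets were not compared by a test.

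The YY1 motif lay just after the transcript start in all 4 genes that held it, beginning at base 25 in Ndufs7, 30 in Ndufa9, 34 in Ndufs6 and 36 in Ndufs4. Of those 4 genes, Ndufs6 was the 1 whose values lay within the other group's bounds. The windows of Ndufs7, Ndufa9 and Ndufs4 are shown because these genes hold the YY1 motif and were among the 9 lower ones. Of other genes among the 9, Ndufa6 held the NRF1 motif, Ndufs8 the ETS motif, and Ndufa10 and Ndufb10 none of the 5. The window of Ndufb4 is shown because it holds the NRF1 motif 3 times. That of Ndufa8 is shown because this gene had the highest subunit ratio, and that of Ndufaf7 because its bounds were separate. All are written 5′ to 3′ on the gene's strand, with any of the 5 motifs in capitals. Ndufs7 lies at chr10:80249199-80249498 (plus), Ndufa9 at chr6:126849095-126849394 (minus), Ndufs4 at chr13:114388045-114388344 (minus), Ndufb4 at chr16:37654319-37654618 (minus), Ndufa8 at chr2:36049289-36049588 (minus) and Ndufaf7 at chr17:78936885-78937184 (plus).
Ndufs7: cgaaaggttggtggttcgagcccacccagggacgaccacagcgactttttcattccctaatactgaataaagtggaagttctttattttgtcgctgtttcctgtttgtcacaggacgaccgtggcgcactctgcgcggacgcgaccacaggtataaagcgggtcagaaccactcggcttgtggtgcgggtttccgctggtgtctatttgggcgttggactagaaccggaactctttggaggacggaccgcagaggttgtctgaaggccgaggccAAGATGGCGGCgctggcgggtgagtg
Ndufa9: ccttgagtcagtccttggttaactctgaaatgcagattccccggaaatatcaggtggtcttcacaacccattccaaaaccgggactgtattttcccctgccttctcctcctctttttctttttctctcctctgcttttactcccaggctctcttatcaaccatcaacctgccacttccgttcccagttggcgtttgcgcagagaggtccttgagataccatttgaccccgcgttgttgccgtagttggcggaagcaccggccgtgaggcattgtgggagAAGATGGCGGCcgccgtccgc
Ndufs4: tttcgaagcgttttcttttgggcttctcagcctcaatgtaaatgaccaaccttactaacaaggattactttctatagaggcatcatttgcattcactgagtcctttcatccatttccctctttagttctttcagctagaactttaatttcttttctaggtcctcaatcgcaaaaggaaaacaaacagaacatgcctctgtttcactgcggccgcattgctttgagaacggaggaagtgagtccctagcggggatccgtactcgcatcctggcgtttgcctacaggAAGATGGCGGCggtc
Ndufb4: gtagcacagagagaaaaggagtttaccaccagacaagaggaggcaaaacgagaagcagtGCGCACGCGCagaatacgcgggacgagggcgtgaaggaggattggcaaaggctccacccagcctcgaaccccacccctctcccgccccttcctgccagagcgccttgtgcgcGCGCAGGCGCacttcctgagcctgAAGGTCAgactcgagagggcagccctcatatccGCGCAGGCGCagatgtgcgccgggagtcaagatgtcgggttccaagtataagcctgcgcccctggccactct
Ndufa8: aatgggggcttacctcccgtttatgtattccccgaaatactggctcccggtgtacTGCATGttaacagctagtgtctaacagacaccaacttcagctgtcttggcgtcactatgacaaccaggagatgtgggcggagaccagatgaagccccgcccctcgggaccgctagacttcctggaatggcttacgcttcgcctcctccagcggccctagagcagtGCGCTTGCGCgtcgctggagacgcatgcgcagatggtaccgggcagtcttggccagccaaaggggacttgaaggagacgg
Ndufaf7: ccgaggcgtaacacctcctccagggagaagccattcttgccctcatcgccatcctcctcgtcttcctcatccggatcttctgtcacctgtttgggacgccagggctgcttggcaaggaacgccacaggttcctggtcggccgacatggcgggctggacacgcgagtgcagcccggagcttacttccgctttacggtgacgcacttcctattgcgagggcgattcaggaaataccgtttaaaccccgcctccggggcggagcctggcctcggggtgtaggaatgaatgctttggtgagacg
In Ndufs7, Ndufa9 and Ndufs4 the capitals are the YY1 motif. In Ndufb4 they are the NRF1 motif, with the ERR motif between the last copies. Ndufa8 holds TGCATG upstream and the NRF1 motif near the start. Ndufaf7 holds none of the 5 motifs in this window.

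The members also differed by transcript length, which the choice of genes did not use. Longer transcripts tended to have lower ratios: across the 38 genes, Pearson's r between the log2 ratio and the log10 length of the longest annotated transcript was -0.42 and Spearman's rho -0.47. The points share the same libraries, and across 11093 protein-coding genes the same values were -0.09 and -0.06. By genomic span, the 27 members under 10 kb had a median log2 ratio of -0.19, the 13 members of 10 to 30 kb -0.35, and the 5 members of 30 kb or more -0.67. Protein-coding genes averaging 50 FPKM or more had medians of -0.02, -0.17 and -0.46 in the same bins, so the order of the bins was not particular to complex I. The 5 long members were Ndufaf2, Ndufs4, Ndufa10, Ndufs1 and Ndufaf5, and all 5 had lower values in overexpressing cells.

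**Figure D5:**
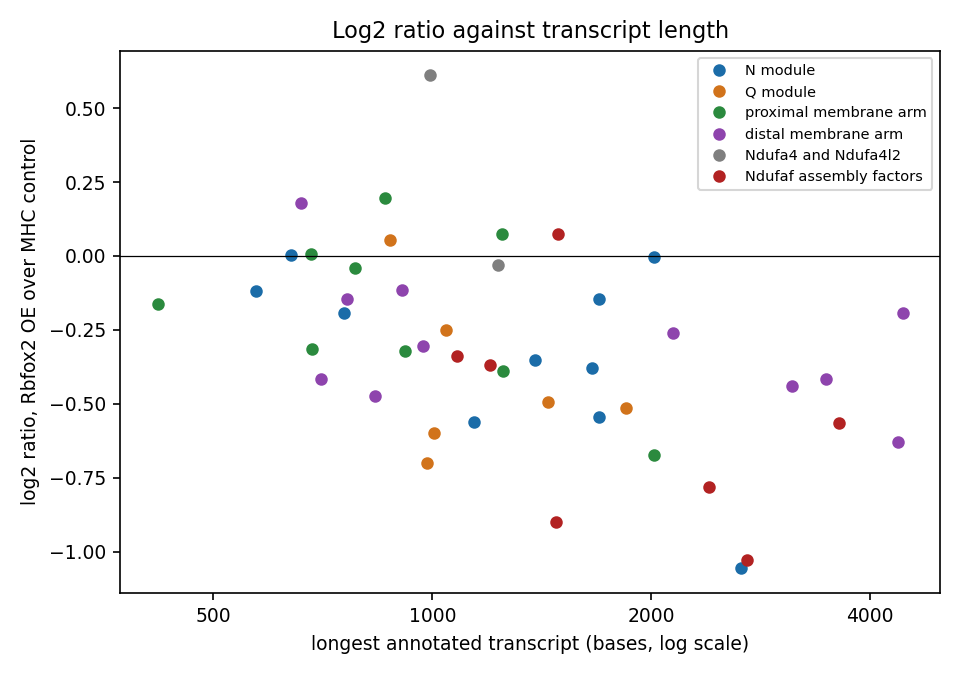
Log2 ratio (Rbfox2 OE to MHC control) (vertical axis) against the length of the longest annotated transcript in bases (horizontal, log scale) for the 45 genes, coloured by role. Ndufs1 and Ndufaf7, the lowest points near -1, have transcripts of 2661 and 2706 bases, and the genes at or above 0 have shorter transcripts.

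Overlapping genes and copies limit some of these values. Of the 45 genes, 22 share bases with another annotated gene, 18 of them with one transcribed from the other strand. The other 23 had a median log2 ratio of -0.34, and 18 of them were lower. Among the 18 subunit genes without an overlap the median was -0.18, with 13 lower, and none had separate bounds. Transcripts of 20 members share 50-base sequences with transcripts of genes elsewhere. The share was highest for Ndufs5 (21.7%), Ndufb4 (18.3%), Ndufa12 (17.7%) and Ndufs3 (16.1%), so the levels of these 4 genes are less certain.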

How the data were processed

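Gene levels were taken from the authors' deposited Cuffdiff table, which holds FPKM values, 1 pooled value per gene and group with lower and upper bounds, per the file headers. The submitters' processing notes name STAR 2.4.2a, Trimmomatic, Picard 1.119, HTSeq, DESeq2 and Cuffdiff 2.2.1, without order, and the builds GRCm38 and mm10. The level of the bounds, the scaling between libraries and whether counting used strand are not given in the sources used here. Libraries were grouped by their title labels, 2 per group.

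Rows that share a gene name (110 names) were summed. The log2 ratio used 1 FPKM added to each value (a pseudocount, so changes of scarce genes are understated), and the 11697 genes averaging 1 FPKM or more were compared. Genes were counted at 2-fold and, separately, where bounds did not overlap. The Nduf genes are named, apart from 1 that is not reported here singly, with full values for those with separate bounds and for the extremes of each role group. The members, gene lists and motifs were chosen with earlier results of these data known. Genes were matched by symbol, or by Ensembl identifier where the symbol had changed. Positions and lengths came from GENCODE M21, and promoters from RefSeq tables. Alternatives covered the pseudocount, the filter, the scaling, the status, repeated names, the threshold and the members. The calculations ran in Python 3.11.15 with pandas 2.3.3 and were tested on simulated data. No p-values were computed.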

Additional observations from a re-analysis of the deposited data

How the results depend on the processing

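No paired analysis was possible because values of single libraries are not in the table used here, and for the same reason no library could be left out in turn. How far libraries of a group differ is unknown, and so is their depth, which limits the scarce assembly factors most. The 2-fold count of subunits (1 lower, 0 higher) became 0 lower when centred on the median gene or rescaled, and 5 lower and 1 higher at 1.5-fold. The 2-fold count of assembly factors was 1 of 7 lower, where 10% of all genes compared were. It became 0 with a pseudocount of 5, when centred or when rescaled. At 1.5-fold it was 3 (42.9%, against 22.1% of all genes). With separate bounds, 1 subunit was lower, and 0 after rescaling. The medians moved by over 0.1 on rescaling, to -0.14 for subunits and to -0.42 for assembly factors. In settings chosen after seeing the data, 9 subunits and 3 assembly factors were lower with each value beyond the other group's bounds. These were 23.7% and 42.9% of their sets, against 20.1% of all genes compared. Restricting to members without an overlapping gene, also chosen later, left 0 subunits 2-fold lower and 0 with separate bounds, since Ndufs1 drops out. The 18 subunit genes that remained had a median of -0.18. The other 89 values of these counts and medians stayed within 1.5 times, or within 0.1 for a median, and none of the medians changed sign. Where no cause is given, the cause was not tested.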
